A study of Bos taurus with 60 samples.

Results

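The miRNAs described here are those of cattle (Bos taurus) from miR-2286 to miR-2490 and from miR-2881 to miR-2904, with any arm or letter suffix. They were chosen by name alone and came to 143 of the 608 miRNAs in the count table, 132 of them in the lower number range and 11 in the upper one. The 143 names cover 123 numbers, and miR-2319a and miR-2319b were the only pair that differ in a letter suffix alone. Small RNA was sequenced from 60 libraries of gut wall, 5 for each of 12 groups made of 6 regions and 2 shedding statuses. Super-shedders, lettered F to J, shed E. coli O157 in the faeces above the limit set by the study, and non-shedders, lettered A to E, tested negative for it in the faeces. The regions were the duodenum, proximal jejunum and distal jejunum of the small intestine and the cecum, spiral colon and descending colon of the large intestine. The labels name no treatment for either group beyond the shedding status. Each library was made from whole biopsies, so epithelium, muscle, blood and nerve are mixed in every value. The letter is read here as the animal. No age, breed or sex is used.

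A miRNA is a short RNA cut from a hairpin, and it guides Argonaute proteins to messenger RNAs that pair with its seed. A number is given in order of registration, so these number ranges collect sequences entered at about the same time, most of them from cattle, and do not define a family with a shared seed. Some of them lie inside other genes, whose transcript can carry the hairpin. No role in the gut is stated for them below, because none is known with enough certainty. Of the 143 names, 139 matched a gene in the RefSeq annotation of ARS-UCD2.0, which was used for names and neighbours only. The matched genes lay within the span of a protein-coding gene for 111 of 139 names (79.9%), against 261 of 451 other matched miRNAs (57.9%), without regard to strand. These shares were not formed alike. Any gene matched by symbol or synonym counted for the 139, and the first gene matched by symbol alone for the others. Arms of a hairpin count as separate names. miR-2332 lies within the span of UTP6, a factor in small ribosomal subunit assembly. miR-2411 lies within that of UBAP2L, an RNA-binding protein, and miR-2424 within that of NCAPD2, a subunit of condensin. miR-2299 lies within the span of B3GLCT, a glucosyltransferase, and miR-2889 within that of ZSWIM6. miR-2310, miR-2336, miR-2419, miR-2890, miR-2892 and miR-2898 lie within no protein-coding or long non-coding RNA gene of that annotation. Other kinds of gene were not searched. miR-2404, miR-2887 and miR-2888 each matched more than 1 gene, and how reads that match several copies were counted is not given in the sources used here.

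Libraries held 535373 to 19346766 counts (median 1735050), and the 143 miRNAs took 100 to 2715 of them. By the markers of the tissue, 13 of the 60 libraries stood apart from their label. In 6 libraries labelled as large intestine, miR-196b, a miRNA of the HOX clusters used here as a hindgut marker, was below 50 CPM (counts per 1000000, scaled by TMM, a trimmed mean of ratios between libraries). These were the cecum of I, the spiral colon of C, H and I and the descending colon of G and H. In 5 libraries labelled as small intestine, the proximal jejunum of B and I and the distal jejunum of B, H and I, it was above that level. The duodenum of I held 8622 CPM of miR-122, a liver miRNA, and the descending colon of I held 3388 CPM of miR-192, an intestinal epithelial miRNA, which put it under 10000 CPM. Shares and most counts of calls are given with and without these libraries. So are the epithelial, muscle and leukocyte marker sums and the proximal jejunum medians. All measured epithelial, muscle, leukocyte and red blood cell markers were detected.

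The 143 miRNAs were scarce. Together they held 29577 counts, 0.0175% of the table, against 99.98% for the other 465 miRNAs, and per library their share was between 0.00564% and 0.131% (median 0.0205%). A library held at least 1 count for 29 to 84 of them (median 48), and the libraries with 84 and 83 were the 2 deepest, the descending colon of J and of A. At this depth a count of 0 allows up to 0.155 to 5.60 CPM before TMM scaling, depending on the library (3 counts, counting error only).

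The scarcer miRNAs were counted in fewer libraries. 9 of the 143 were counted in all 60 libraries, 36 in 30 to 59, 70 in 2 to 29, 24 in 1 library and 4 in none. The 4 with no count were miR-2312, miR-2395, miR-2416 and miR-2439-3p. The 24 seen in a single library had 1 or 2 counts each, so a difference between groups was not detectable for them at this depth. Of the other 465 miRNAs, 238 were counted in all 60 libraries. The median of the mean level was 0.115 CPM for the 143 and 6.73 CPM for the rest. The upper number range was more often detected than the lower one, with a median of 47 libraries against 12 libraries. Of its 11 members, miR-2890, miR-2898, miR-2904, miR-2892, miR-2889 and miR-2887 averaged more than 1 CPM, and miR-2886 and miR-2888 were each seen as 1 read in all.

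**Figure D1:**
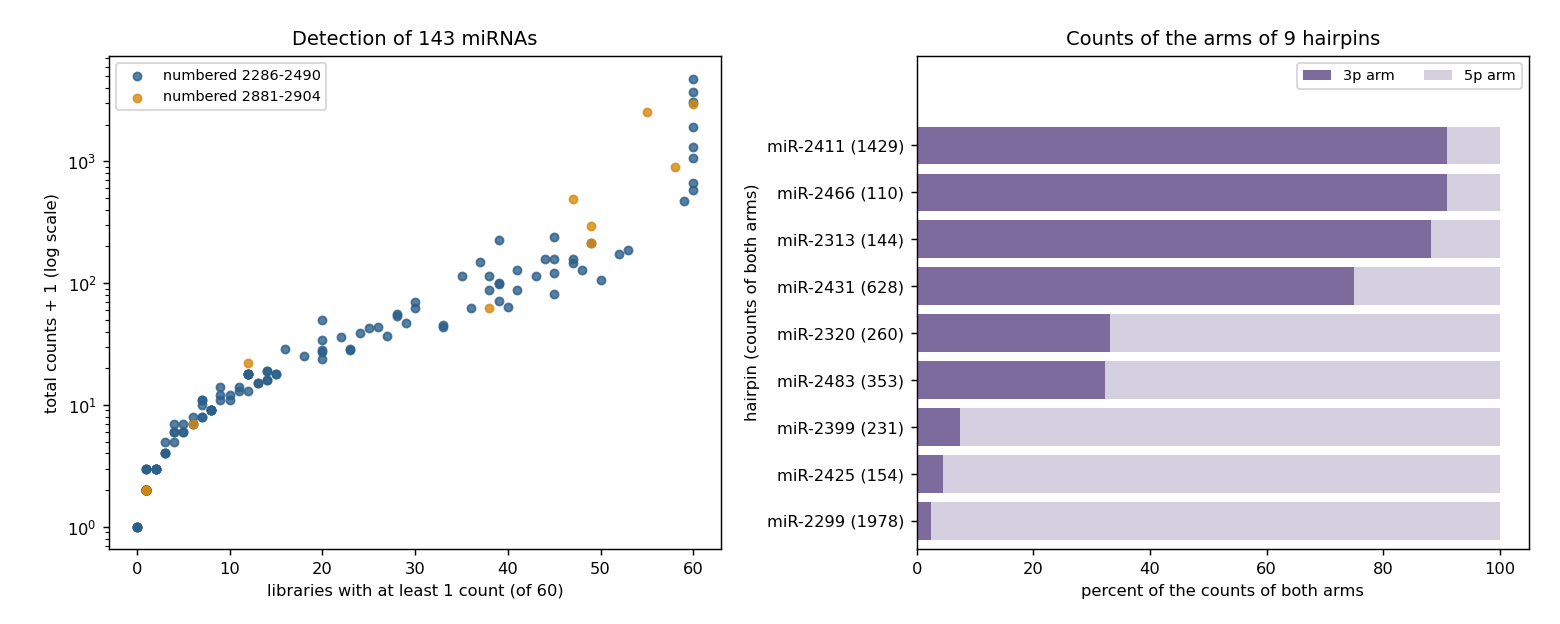
Left: libraries with at least 1 count (of 60) against total counts plus 1 on a log scale, 1 point for each of the 143 miRNAs, coloured by number range. Right: the share of counts from the 3p and 5p arm, in percent, for the 9 hairpins with 100 counts or more over both arms, with the counts in brackets. The points run from 4 miRNAs with no count to 9 seen in all 60 libraries, and 5 of the 9 hairpins gave more 5p than 3p counts.

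19 hairpins have both arms in the table, and 9 of them had 100 counts or more. In these 9 the arms gave unequal counts. Below 100 counts some hairpins were even, such as miR-2448 with 27 counts from each arm. miR-2299 gave 1929 counts from the 5p arm and 49 from the 3p arm, with the 5p arm higher in 60 of 60 libraries. miR-2411 gave 1301 counts from the 3p arm and 128 from the 5p arm, with the 3p arm higher in 54 libraries and the 5p arm in 4. miR-2431 also favoured the 3p arm, which gave 75.0% of its counts and was higher in 46 libraries. The 5p arm gave more counts in miR-2399 (214 against 17), miR-2425 (147 against 7), miR-2483 (239 against 114) and miR-2320 (174 against 86). The 3p arm did so in miR-2313 (127 against 17) and miR-2466 (100 against 10).

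7 of the 143 averaged 10 CPM or more, 17 averaged 1 to 10 CPM and 119 less than 1 CPM. miR-2332 and miR-2419-5p were the most abundant, at 33.7 ± 43.0 and 33.7 ± 26.3 CPM (SD, n = 60), and ranked 165 and 166 among all 608. miR-2890 followed at 25.5 ± 49.5 CPM, miR-2898 at 23.8 ± 16.3 CPM and miR-2336 at 21.9 ± 8.08 CPM. The SD exceeded the mean for miR-2332 and miR-2890 and was well below it for miR-2336. miR-2411-3p averaged 12.3 ± 20.3 CPM, miR-2299-5p 11.4 ± 5.05 CPM and miR-2484 7.63 ± 5.85 CPM. miR-2904 averaged 5.52 ± 6.57 CPM, miR-2424 5.49 ± 7.89 CPM, miR-2892 4.78 ± 10.0 CPM and miR-2310 4.40 ± 2.48 CPM. The SD is the spread between libraries of all regions, and neighbours in this order were not tested against each other.

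**Figure D2:**
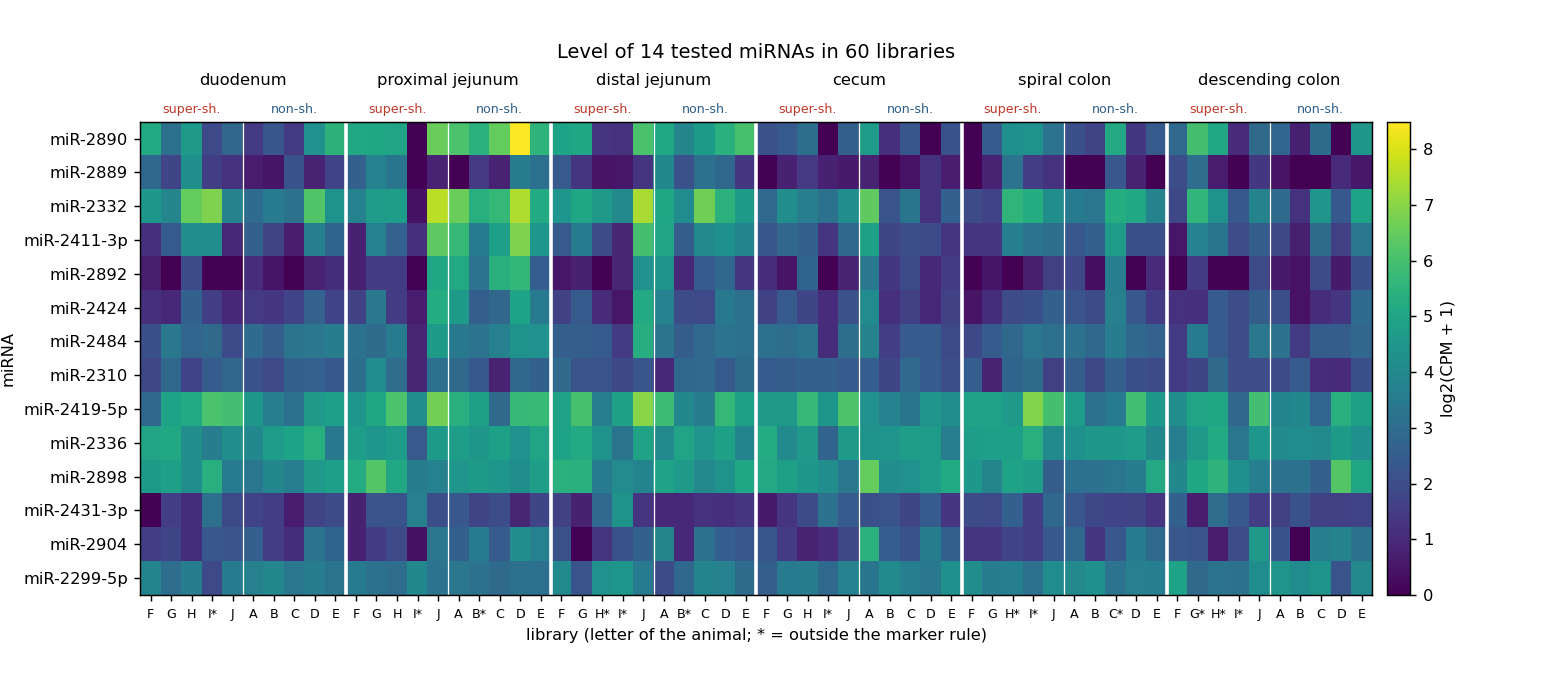
Level of the 14 miRNAs tested over all 60 libraries, as log2(CPM + 1), with libraries as columns by region, super-shedders left of non-shedders, and miRNAs ordered by their large over small intestine fold change. An asterisk marks the 13 libraries outside the marker rule. The first rows are brightest in the jejunum, most of all in the proximal jejunum of J, A and D and the distal jejunum of J. Of these libraries, those of J and A are low in miR-2889, while miR-2336 keeps a similar shade in most libraries.

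The first comparison is between the large and the small intestine. The 143 miRNAs together took a smaller share of counts in the large intestine, with a median of 0.0138% (0.00630% to 0.0576%, n = 30), against 0.0302% (0.00564% to 0.131%, n = 30) in the small intestine, with ranges that overlap. By region the median share was 0.0216% in the duodenum, 0.0365% in the proximal jejunum, 0.0302% in the distal jejunum, 0.0140% in the cecum, 0.0135% in the spiral colon and 0.0123% in the descending colon. With the 13 libraries outside the marker rule left out, it was 0.0132% in the large intestine (n = 23), against 0.0318% in the small intestine (n = 24), and by region in the same order 0.0215%, 0.0436%, 0.0333%, 0.0142%, 0.0122% and 0.00841%. In bulk tissue, fewer cells of a type and less RNA per cell cannot be told apart.

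Only 14 of the 143 passed the filter on low counts in the fit over 60 libraries, so counts of calls refer to these 14 and not to the whole list. A miRNA could pass through the groups where it is high. 6 of the 14 were lower in the large intestine and none was higher at an adjusted p under 0.05 (edgeR quasi-likelihood F test, Benjamini-Hochberg over all 288 miRNAs tested). Over all miRNAs tested, 27.1% passed, 15.3% lower and 11.8% higher in the large intestine. The median log2 fold change, large over small, was -0.52 over the 14 and -0.01 over all 288, and 11 of the 14 had a negative value. Scaling by total counts moved the median over all 288 to -0.22 and that over the 14 to -0.79, again with 11 negative.

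miR-2890 had a lowest, median and highest level of 0, 4.44 and 62.1 CPM in the 30 large intestine libraries, against 0, 30.9 and 361 CPM in the 30 small intestine libraries. The ranges overlap widely, but the median in the small intestine is above most large intestine libraries. Its log2 fold change was -1.92 ± 0.46 (SE, edgeR adjusted p = 0.00160). miR-2889 had 0, 0.666 and 8.47 CPM in the large intestine, against 0, 2.13 and 17.8 CPM in the small intestine, and it was at 0 in 9 large and 2 small intestine libraries. Its log2 fold change was -1.88 ± 0.44 (edgeR adjusted p = 0.00125).

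miR-2332 had a lowest, median and highest level of 1.36, 10.8 and 84.8 CPM in the large intestine, against 0.301, 25.2 and 194 CPM in the small intestine. The 0.301 CPM came from the proximal jejunum of I, which is outside the marker rule. The log2 fold change of miR-2332 was -1.55 ± 0.40 (edgeR adjusted p = 0.00258). miR-2411-3p had 0.438, 3.90 and 28.3 CPM in the large intestine, against 0.577, 10.0 and 116 CPM in the small intestine, and a log2 fold change of -1.38 ± 0.40 (edgeR adjusted p = 0.00831). For this miRNA too the highest large intestine library, the cecum of A, stood above most small intestine libraries.

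miR-2424 had 0.341, 2.63 and 16.2 CPM in the large intestine, against 0.431, 2.72 and 37.6 CPM in the small intestine. The medians were almost the same, and the upper end of the small intestine range was higher. Its log2 fold change was -0.96 ± 0.36 (edgeR adjusted p = 0.0396). miR-2484 had 1.09, 6.09 and 12.9 CPM in the large intestine, against 0.904, 7.94 and 38.0 CPM in the small intestine, with a log2 fold change of -0.62 ± 0.24 (edgeR adjusted p = 0.0441).

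The calls for miR-2332, miR-2889 and miR-2890 held without any single letter, and those for the other 3 did not. Without J, the log2 fold change of miR-2411-3p was -0.79 (edgeR adjusted p = 0.126), and without D it was -1.08 (edgeR adjusted p = 0.0685). Without J, that of miR-2424 was -0.53 (edgeR adjusted p = 0.251) and that of miR-2484 was -0.40 (edgeR adjusted p = 0.170). miR-2424 lost its call without any of B, D, E, F, G, H or J, and miR-2484 without any of B, C, D, E, F, G or J. With the letter as a block, which compares regions within an animal, miR-2424 missed the threshold (log2 fold change -0.80, edgeR adjusted p = 0.0531) and the other 5 kept the call. Without D or without J, 3 of the tested miRNAs were called, with 22.3% and 21.8% called over all miRNAs.

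The marker rule selects on miR-196b, itself a marker of the large intestine. A fit without the 13 libraries outside it is thus not independent of this comparison. Such a fit also lacks every library of I, and without I alone 8 of 15 were called (44% of all). Without the 13 libraries, the differences were larger. 11 of 17 miRNAs then tested were called, 10 lower and 1 higher in the large intestine, with 51.5% called over all miRNAs. The log2 fold change was then -2.92 for miR-2890, -2.89 for miR-2889, -2.14 for miR-2332 and -1.33 for miR-2424. miR-2299-5p was the 1 higher, at 0.57 (edgeR adjusted p = 0.00436), while with all 60 libraries its value was 0.35 ± 0.16 (edgeR adjusted p = 0.0980).

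The other tested miRNAs did not pass with all 60 libraries. The log2 fold change was -1.22 ± 0.54 for miR-2892 (edgeR adjusted p = 0.0855) and -0.42 ± 0.20 for miR-2310 (edgeR adjusted p = 0.107). It was -0.40 ± 0.25 for miR-2419-5p, -0.15 ± 0.16 for miR-2336, -0.11 ± 0.24 for miR-2898, 0.11 ± 0.27 for miR-2431-3p and 0.22 ± 0.32 for miR-2904. Of these, miR-2336 and miR-2898 had nearly equal means in the 2 parts of the gut, at 21.0 ± 7.73 and 22.7 ± 8.47 CPM for miR-2336 and 23.6 ± 19.0 and 23.9 ± 13.3 CPM for miR-2898 (large, then small intestine, SD, n = 30 each).

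**Figure D3:**
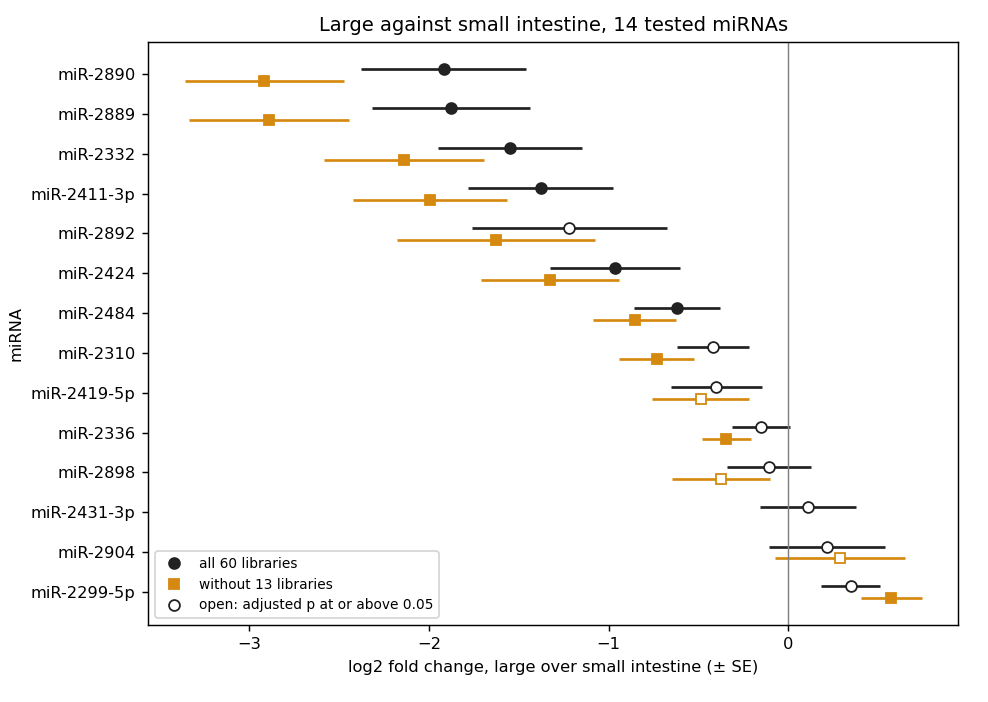
log2 fold change, large over small intestine, with its SE, for the 14 tested miRNAs, with all 60 libraries (circles) and without the 13 libraries outside the marker rule (squares; miR-2431-3p did not pass the filter there). Filled symbols have an edgeR adjusted p under 0.05: 6 circles are filled, all left of 0, and the squares lie farther from 0 for the 4 miRNAs with the largest differences.

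Markers of several cell types had different median sums in the 2 parts of the gut. The 9 epithelial marker miRNAs, all measured and none at 0 throughout, summed to 3842 to 247487 CPM (median 105026) in the large intestine, against 2763 to 281152 CPM (median 167769) in the small intestine. The 5 muscle and mesenchyme markers, all measured, summed to 58347 to 1363840 CPM (median 598977) in the large intestine, against 61342 to 1595120 CPM (median 415125) in the small intestine. Sums above 1000000 arise because TMM scaling changes the total of a library. The 5 leukocyte markers summed to 1156 to 11446 CPM (median 4308) in the large intestine, against 505 to 17331 CPM (median 6844) in the small intestine. Epithelial and leukocyte sums were thus lower in their median in the large intestine, where the 6 called miRNAs were also lower, and muscle sums were higher. The 3 red blood cell markers summed to 228 to 20185 CPM (median 455) in the large intestine, against 253 to 1340 CPM (median 377) in the small intestine. The 20185 CPM came from the descending colon of I. The 2 neural markers found of 5 listed had a median sum of 94.9 CPM in the large and 80.8 CPM in the small intestine. The 4 liver and pancreas markers had a median sum of 0.639 CPM in the large and 1.86 CPM in the small intestine. The HOX miRNAs miR-196a and miR-196b summed to a median of 803 CPM in the large intestine, against 12.1 CPM in the small intestine. With the 13 libraries left out, the median sum was 103706 CPM in the large and 169327 CPM in the small intestine for the epithelial markers, 663971 and 400855 CPM for the muscle and mesenchyme markers, and 4247 and 8476 CPM for the leukocyte markers. The part of tissue makeup in the differences above was not tested. 3 libraries of I were low in miR-192, at 2409 CPM in the proximal jejunum, 6130 CPM in the distal jejunum and 3388 CPM in the descending colon. In the same order they held 0, 1.29 and 1.01 CPM of miR-2890 and 4.22, 8.63 and 9.10 CPM of miR-2336. miR-2431-3p was at 12.1, 19.8 and 4.04 CPM in them, and the first 2 of these values are its highest over all 60 libraries.

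The second comparison asks whether a miRNA differed between any of the 6 regions. 6 of the 14 tested miRNAs passed, with 21.9% of all 288 (edgeR, adjusted over all). They were miR-2892 (edgeR adjusted p = 0.000361), miR-2890 (0.00145), miR-2411-3p (0.00432), miR-2424 (0.0045), miR-2889 (0.0198) and miR-2332 (0.0374). With the letter as a block, miR-2332 missed the threshold (edgeR adjusted p = 0.0697). Without J, miR-2889 and miR-2890 alone passed, with 13.6% of all, and miR-2332 had an edgeR adjusted p of 0.296. Without the 13 libraries outside the marker rule, 11 of 17 passed, with 53.1% of all.

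With both statuses pooled, the median levels of all 6 were highest in the proximal jejunum. Within each status (n = 5 per region) this did not hold for miR-2424, miR-2411-3p and miR-2889. In super-shedders, miR-2424 had higher medians in the cecum, spiral colon and descending colon (2.44, 2.82 and 3.03 CPM) than in the proximal jejunum. Their median of miR-2411-3p was 5.35 CPM there and 7.41 CPM in the spiral colon. In non-shedders, that of miR-2889 was 1.67 CPM in the proximal and 6.07 CPM in the distal jejunum. The median of miR-2890 over 10 libraries was 6.88 CPM in the duodenum, 43.5 in the proximal jejunum, 30.4 in the distal jejunum, 3.60 in the cecum, 4.44 in the spiral colon and 6.61 CPM in the descending colon. The median of miR-2332 in the same order was 16.2, 38.1, 27.2, 8.48, 15.0 and 9.85 CPM, and that of miR-2411-3p was 4.72, 16.6, 11.7, 3.46, 4.57 and 3.83 CPM. The median of miR-2892 was 0.510, 6.58, 1.25, 1.35, 0.512 and 0.519 CPM, and 13 of the 60 libraries held no count of it. The median of miR-2424 was 1.84, 7.82, 3.55, 2.18, 3.03 and 2.29 CPM, and that of miR-2889 was 2.13, 3.40, 2.42, 0.666, 0.778 and 0.511 CPM. miR-2336, which was not called, had medians of 21.0, 24.4, 24.2, 21.7, 23.3 and 17.6 CPM. Without the 13 libraries outside the marker rule and with statuses pooled, the medians of all 6 were again highest in the proximal jejunum. There they were 55.9 CPM for miR-2890, 43.0 for miR-2332, 23.8 for miR-2411-3p, 18.2 for miR-2892, 10.0 for miR-2424 and 6.37 CPM for miR-2889.

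**Figure D4:**
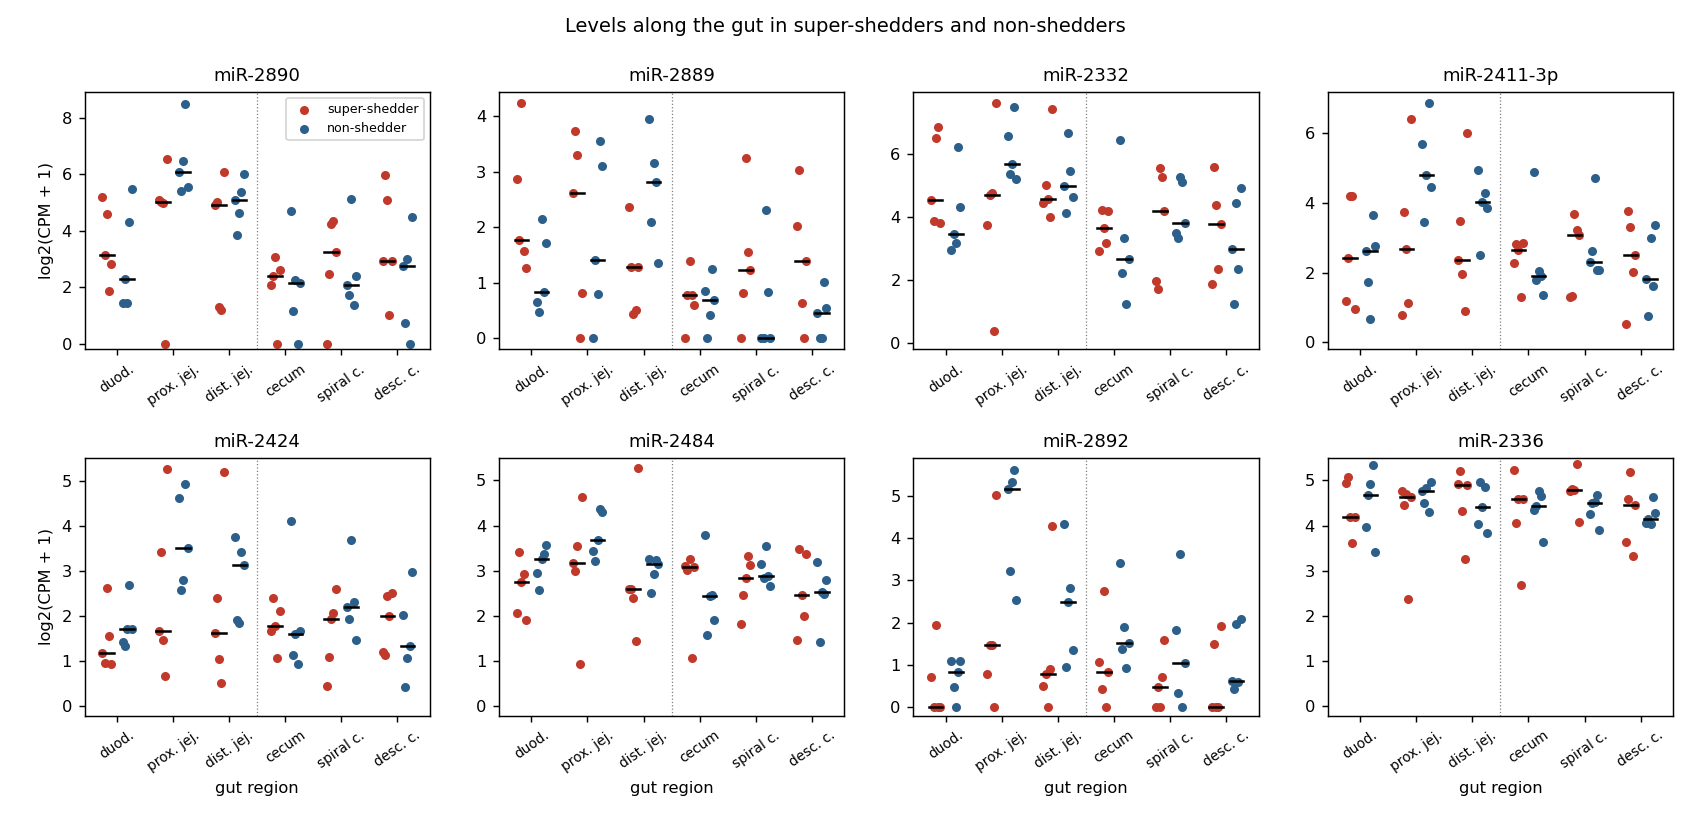
log2(CPM + 1) of 8 miRNAs by region, 1 point per library, super-shedders (red) left of non-shedders (blue), with the median of each group of 5 as a line and a dotted line between small and large intestine. miR-2890, miR-2332, miR-2411-3p, miR-2424 and miR-2892 reach their highest values in the proximal jejunum, and miR-2336 keeps about the same level in all 6 regions.

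Neighbouring regions were also set against each other, a comparison added after the data were seen. In the proximal jejunum against the duodenum, 3 of 14 were called, all higher, with 6.6% called over all 288. miR-2892 held 0.732, 1.76, 1.78, 0 and 31.5 CPM in the proximal jejunum of super-shedders F to J and 34.9, 8.35, 39.5, 48.5 and 4.81 CPM in that of non-shedders A to E. In the duodenum it held 0.635, 0, 2.88, 0 and 0 CPM in F to J and 1.13, 0.385, 0, 0.775 and 1.15 CPM in A to E. All 5 non-shedders and J were above every duodenum library, and F, G, H and I were within the duodenum range.

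The log2 fold change of miR-2892, proximal jejunum over duodenum, was 4.26 ± 0.93 (edgeR adjusted p = 9.88e-04). That of miR-2424 was 2.40 ± 0.64 (edgeR adjusted p = 0.0111), with a lowest, median and highest level of 0.603, 7.82 and 37.6 CPM in the proximal jejunum, against 0.930, 1.84 and 5.42 CPM in the duodenum. miR-2411-3p had 0.732, 16.6 and 116 CPM in the proximal jejunum, against 0.577, 4.72 and 17.3 CPM in the duodenum, and a log2 fold change of 2.24 ± 0.70 (edgeR adjusted p = 0.0404). With the letter as a block, the value for miR-2411-3p was 1.61 (edgeR adjusted p = 0.130). miR-2890 had a log2 fold change of 2.23 ± 0.79 and did not pass (edgeR adjusted p = 0.0748).

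The calls at the step into the proximal jejunum depended on J. Without J, none of the tested miRNAs was called, with 4.42% of all, and 3 of 15 had an unadjusted p under 0.05, with 18.7% of all. There the log2 fold change was 2.61 for miR-2892, 1.51 for miR-2424 and 1.04 for miR-2411-3p. DESeq2, which fitted 139 of these miRNAs rather than 14, called 5 of the 139, with 4.48% of all 603. Without I, whose proximal jejunum library is outside the marker rule, 5 were called (14.4% of all). With the 13 libraries outside the rule left out, 6 of 17 were called (18.4% of all).

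Between the distal and the proximal jejunum, edgeR called none of 14, with 0% called over all 288, and gave none of them an unadjusted p under 0.05 (1.74% of all). DESeq2, which fitted 139 of these miRNAs and 603 in all, called none (0% of all) and gave 1 of the 139 an unadjusted p under 0.05 (0.829% of all). Its own filter can leave low-count miRNAs without an adjusted p, and they remain in these totals. In the cecum against the distal jejunum, 1 of 14 was called, with 8.68% of all. miR-2890 had a lowest, median and highest level of 0, 3.60 and 25.0 CPM in the cecum, against 1.29, 30.4 and 66.1 CPM in the distal jejunum, a log2 fold change of -2.64 ± 0.83 (edgeR adjusted p = 0.0287). 9 of the 10 cecum libraries were below the distal jejunum libraries other than those of H and I, and the 10th was that of A. This call was lost without any of B, D, E, F, G or J (edgeR adjusted p from 0.0566 to 0.101). miR-2889 had a value of -2.22 ± 0.79 (edgeR adjusted p = 0.0635), and with the letter as a block it passed (edgeR adjusted p = 0.0314). DESeq2 called 2 of 139 (7.13% of all). The fit with the letter as a block called 2 of 14 (16% of all), and scaling by total counts called none of 14 (1.39% of all). Without the 13 libraries, 6 of 17 were called, with 28.8% of all, and the value for miR-2890 was -3.04.

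Within the colon no step was called. In the spiral colon against the cecum, edgeR called none of 14 (0.347% over all) and gave none an unadjusted p below 0.05 (7.64% over all). In the descending against the spiral colon it again called none of 14 (0% over all) and gave none an unadjusted p below 0.05 (5.21% over all). DESeq2 called none of 139 at either step (0.332% over all in the spiral colon against the cecum and 0% in the descending against the spiral colon), and 1 of 139 had an unadjusted p below 0.05 at each (5.14% and 3.65% over all). None was called at either step when the 13 libraries outside the marker rule were left out, with 1.62% of all called in the spiral colon against the cecum and 0% in the descending against the spiral colon.

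A few libraries held the highest levels of several of these miRNAs at once. For the 6 miRNAs that differed between regions, the 10 highest libraries of each came from 22 libraries in all, 18 of them from the small intestine and 8 from the proximal jejunum. The proximal jejunum of D was in all 6 lists, and the proximal jejunum of A and J and the distal jejunum of J were in every list but that of miR-2889. miR-2889 was at 0, 0.768 and 1.43 CPM in these 3 libraries, and at 10.8 CPM in the proximal jejunum of D. Among the 47 libraries inside the marker rule, the distal jejunum of D was in all 6 lists as well. In the proximal jejunum of D, miR-2890 reached 361 CPM, miR-2332 179 CPM, miR-2411-3p 116 CPM and miR-2892 48.5 CPM. In the distal jejunum of J, miR-2332 reached 171 CPM, miR-2411-3p 63.2 CPM and miR-2424 35.7 CPM. The cecum of A, a large intestine library inside the marker rule, was in 4 of the 6 lists. There miR-2332 was at 84.8 CPM, against 1.37 to 8.94 CPM in the other non-shedder ceca.

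The third comparison is between super-shedders and non-shedders within each region. No miRNA of these numbers passed in any region (edgeR, Benjamini-Hochberg over all miRNAs tested). The members tested numbered 7 of 239 in the duodenum, 10 of 237 in the proximal jejunum, 9 of 243 in the distal jejunum, 9 of 260 in the cecum, 9 of 261 in the spiral colon and 9 of 269 in the descending colon. Over all miRNAs tested, the share called in the same order was 0.418%, 0%, 0.412%, 0%, 0.383% and 0%, so calls were rare throughout. At an unadjusted p under 0.05 there was 1 member in the cecum and none in the other 5 regions. Over all miRNAs tested, the share at that level was 3.77%, 10.1%, 9.88%, 6.15%, 7.28% and 2.97% in anatomical order. DESeq2 called 1 of the 105 members fitted in the cecum, described below, and none in the other 5 regions. Of all miRNAs fitted, it called 0.192%, 0.187%, 0.753%, 0.37%, 0.375% and 0% in anatomical order.

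miR-2419-5p, which gave the 1 unadjusted p under 0.05, had the smallest p of these miRNAs in the duodenum, cecum and spiral colon. In the cecum it held 22.9, 23.1, 49.7, 21.5 and 69.0 CPM in super-shedders F to J, against 18.6, 12.5, 8.94, 20.5 and 16.8 CPM in non-shedders A to E. The groups did not overlap, though the lowest super-shedder and the highest non-shedder were close. The log2 fold change was 1.20 ± 0.39, and it did not pass (edgeR adjusted p = 0.363, unadjusted 0.0102). It was the 1 of 9 tested miRNAs whose groups did not overlap in the cecum, where 2.69% of all 260 did not overlap. In the other 5 regions none of the tested miRNAs had groups that did not overlap, with 0.418%, 2.53%, 1.65%, 0.383% and 0% of all in anatomical order.

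In the duodenum, miR-2419-5p held 6.35, 29.4, 35.7, 66.5 and 60.9 CPM in super-shedders F to J, against 21.5, 11.6, 7.50, 22.5 and 26.9 CPM in non-shedders A to E. 4 of the 5 super-shedders were above every non-shedder and F was below them all (log2 fold change 1.10 ± 0.55, edgeR adjusted p = 0.838). In the spiral colon it held 29.0, 28.6, 22.6, 119 and 62.7 CPM in F to J, against 24.2, 7.75, 10.2, 60.3 and 22.2 CPM in A to E. There the groups overlapped (log2 fold change 1.20 ± 0.59, edgeR adjusted p = 0.697).

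In the proximal jejunum, miR-2419-5p held 21.2, 31.6, 67.8, 17.5 and 104 CPM in F to J, against 40.2, 27.4, 6.71, 50.3 and 52.1 CPM in A to E (log2 fold change 0.55 ± 0.59). In the distal jejunum it held 28.8, 64.5, 11.8, 28.0 and 125 CPM in F to J, against 55.8, 14.5, 11.2, 49.2 and 27.4 CPM in A to E (0.73 ± 0.66). In the descending colon it held 17.1, 30.1, 32.0, 6.06 and 61.8 CPM in F to J, against 13.4, 14.7, 5.84, 40.1 and 27.2 CPM in A to E (0.57 ± 0.60). The groups overlapped in these 3 regions. J was the highest of the super-shedders in 4 of the 6 regions. The 6 regions share the same animals, so 6 positive values are not 6 independent results.

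**Figure D5:**
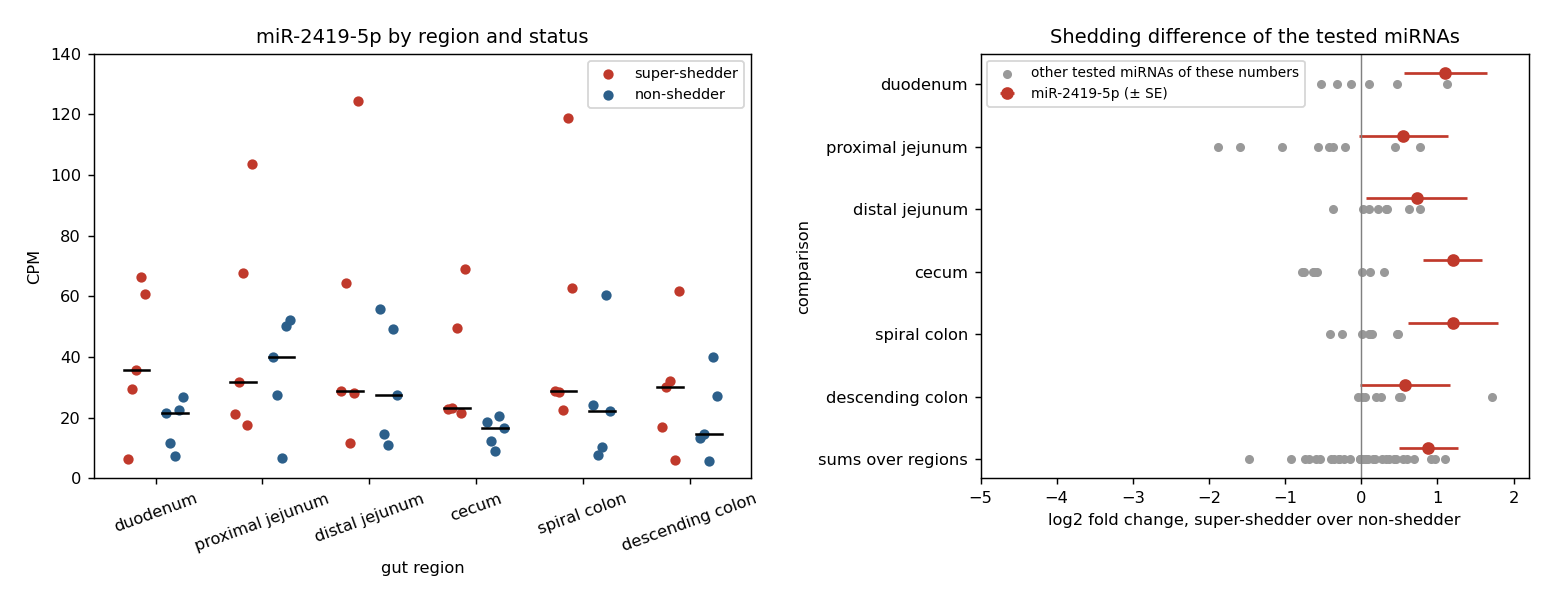
Left: miR-2419-5p in CPM by region, 1 point per library, super-shedders (red) left of non-shedders (blue), with the median of each group of 5 as a line. Right: log2 fold change, super-shedder over non-shedder, of every tested miRNA of these numbers by comparison, with miR-2419-5p in red with its SE. The red points lie between 0.55 and 1.20, and the groups fail to overlap in the cecum alone.

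The miRNAs with the smallest p in the other regions also did not pass. In the proximal jejunum this was miR-2299-5p, with 10.2, 7.91, 7.14, 14.8 and 8.45 CPM in super-shedders F to J, against 9.22, 8.02, 6.71, 8.08 and 7.61 CPM in non-shedders A to E. Its log2 fold change was 0.45 ± 0.27 (edgeR adjusted p = 0.502). In the distal jejunum it was again miR-2299-5p, with 15.9, 3.58, 18.6, 21.1 and 9.98 CPM in F to J, against 2.89, 6.08, 13.1, 12.8 and 7.05 CPM in A to E. There its log2 fold change was 0.78 ± 0.49 (edgeR adjusted p = 0.531). The 14.8 and 21.1 CPM are from libraries of I outside the marker rule, and the groups overlapped in both regions.

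In the descending colon the smallest p was that of miR-2890, with 6.56, 62.1, 33.1, 1.01 and 6.65 CPM in F to J, against 5.77, 0.682, 6.93, 0 and 21.6 CPM in A to E. The log2 fold change was 1.72 ± 1.11 (edgeR adjusted p = 0.979). The 2 highest values, of G and H, came from libraries in which miR-196b was below the limit for large intestine.

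DESeq2 called miR-2904 in the cecum, which had not passed the edgeR filter there. It held 3.82, 1.78, 0.814, 1.09 and 2.58 CPM in super-shedders F to J, against 42.0, 4.84, 3.44, 11.0 and 5.28 CPM in non-shedders A to E. The groups overlapped only in that F was above C. The log2 fold change of miR-2904 was -2.69 ± 0.72 by DESeq2 (adjusted p = 0.0479) and -2.61 by edgeR with no filter (adjusted p = 0.246). Without the cecum of I, which is outside the marker rule, DESeq2 did not call it (log2 fold change -2.58, adjusted p = 0.0636) or any other of these miRNAs, with 0.187% of all called.

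Over the tested miRNAs, the median log2 fold change between super-shedders and non-shedders was 0.10 in the duodenum, -0.40 in the proximal jejunum, 0.33 in the distal jejunum, -0.58 in the cecum, 0.12 in the spiral colon and 0.26 in the descending colon. The median over all miRNAs tested was between -0.04 and 0.09 in these comparisons. Scaling by total counts moved the median of all miRNAs in the same order to 0.22, -0.14, -0.27, 0.32, 0.23 and -0.01, and that of these miRNAs to 0.19, -0.55, 0.20, -0.10, 0.50 and 0.26.

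Summing the 6 regions of each letter gave 33 miRNAs of these numbers with enough counts to test, of 361 in all. None passed by edgeR or DESeq2, with 0.277% called over all in edgeR and 1.82% in DESeq2, and edgeR gave 1 of the 33 an unadjusted p under 0.05 (9.42% of all 361). This was miR-2419-5p, with a log2 fold change of 0.88 ± 0.39 (edgeR adjusted p = 0.504, unadjusted 0.0433). DESeq2 gave 4 of 139 an unadjusted p under 0.05 (7.46% of all), and edgeR without J gave 6 of 34 (14% of all). The median log2 fold change over the 33 was 0.05, with 18 higher and 15 lower in super-shedders, and 0.00 over all 361. A test of whether the shedding difference itself differed between regions found none of 14 (0.347% over all), with 1 at an unadjusted p under 0.05 (5.21% of all), and without J 3 of 15 (8.16% of all). The 1 with all letters was miR-2889 (edgeR adjusted p = 0.949, unadjusted 0.0297), and the test was not run in DESeq2. Leaving out the 13 libraries outside the marker rule gave no call in the 6 regions, the sums or the test of the difference. Most of the 13 are super-shedder libraries, among them every library of I. In the descending colon F and J were the only super-shedders left, and the sums lacked I and held fewer regions for B, C, G and H. An absence of calls in these smaller fits says little.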

How the data were processed

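Small RNA of 60 gut libraries was measured, 1 per animal letter and region. One table of raw counts, with a row for each miRNA, was deposited by the authors. Bowtie and edgeR are named in the submitters' processing notes. Genome build, miRNA annotation and the treatment of multiply matching reads: not given in the sources used here. RNA was extracted with a mirVana kit and libraries were made with an Illumina TruSeq small RNA kit, per the labels' protocols. Those protocols speak of rectal tissue, while the labels of the samples name the 6 regions, which were used here.

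Counts were tested with edgeR 4.0.16 (R 4.3.3): TMM scaling, filterByExpr with a minimum count of 10, quasi-likelihood F test, Benjamini-Hochberg over all miRNAs tested, threshold 0.05. Each fit used the whole table, and the results for the 143 miRNAs were printed. Shedding was tested within a region (10 libraries) and on counts summed by letter. Regions were compared in 1 fit over 60 libraries and 12 group means. The SE is the log2 fold change divided by the square root of F. A level is a TMM-scaled CPM, with 1 scaling for the 60 libraries, and levels of different libraries do not share 1 total. The tests were run on simulated data with known changes first.

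Library totals were 535373 to 19346766 counts. Intervals for a count of 0 cover counting error only. The labels do not state the animal behind a letter. Libraries with the same letter deviated together (mean correlation of deviations from the group means 0.163 over 150 pairs, against -0.0133 for other pairs, over 224 miRNAs at 10 CPM or more), and 95 of the 150 were above 0.1. No pair of replicates agreed within sampling noise (lowest chi-square per degree of freedom 43.9 over 120 pairs).

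The members, the marker lists and the comparisons were chosen with earlier results of these data known. Named are the 12 miRNAs with the highest mean CPM, all that passed in a main edgeR fit, and the 1 with the smallest p in each shedding comparison. Those that passed only under an alternative were not all named. miR-2431-3p, miR-2887, the 4 with no count and the arms were named after their values were seen. Alternatives were scaling by relative log expression or total counts, no filter, DESeq2 1.42.0, the letter as a replicate block, leaving out each letter, and leaving out the 13 libraries outside the marker rule (miR-196b at or above 50 CPM in the large and below it in the small intestine, miR-192 at or above 10000 CPM, miR-122 below 100 CPM), which was chosen after the data were seen.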

Additional observations from a re-analysis of the deposited data

Results flagged for a closer look

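In 39 of 168 groups of 5 libraries (14 miRNAs in 12 groups), the highest or lowest library stood apart from the other 4, with a gap to its neighbour of more than 0.710 of the group's range. For independent values with a normal distribution, chance gives about 1 in 20 groups. These values are skewed and several miRNAs are high in the same libraries, so that rate does not hold for them. The library was the highest in 37 groups and the lowest in 2, and the values below are CPM.

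Several miRNAs stood apart in the same library. In the proximal jejunum of J these were miR-2332 (194), miR-2411-3p (83.7), miR-2424 (37.6), miR-2892 (31.5) and miR-2904 (9.22). In the distal jejunum of J they were miR-2332 (171), miR-2411-3p (63.2), miR-2484 (38.0), miR-2424 (35.7) and miR-2892 (18.5), and in the descending colon of J miR-2904 (23.2). In the cecum of A they were miR-2898 (89.7), miR-2332 (84.8), miR-2904 (42.0), miR-2411-3p (28.3), miR-2890 (25.0), miR-2424 (16.2), miR-2484 (12.9) and miR-2892 (9.69). In the spiral colon of C, which is outside the marker rule, they were miR-2890 (34.0), miR-2411-3p (24.9), miR-2424 (11.9), miR-2892 (11.3) and miR-2889 (3.96).

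The others were spread over more libraries. They were miR-2332 (72.8) and miR-2424 (5.42) in the duodenum of D, miR-2890 (361) in the proximal jejunum of D, and miR-2892 (19.3) in the distal jejunum of A. In H they were miR-2424 (5.18) and miR-2892 (2.88) in the duodenum, miR-2892 (5.70) in the cecum, miR-2889 (8.47) in the spiral colon and miR-2310 (6.73) in the descending colon. The rest were miR-2889 (4.18) in the distal jejunum of F, miR-2431-3p (3.41) in the descending colon of B, and miR-2898 (33.7) in the spiral colon of E. In I, miR-2431-3p was highest in the proximal jejunum (12.1), miR-2336 was lowest there (4.22) and miR-2484 was lowest in the cecum (1.09).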

How the results depend on the processing

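No direction of a called miRNA reversed under any alternative run. Of 160 refitted values for the 10 called differences, 121 kept direction and call and 39 kept direction but missed the threshold. Without the 13 libraries outside the marker rule, the counts called were 11 for any region, 11 for the large over the small intestine, 6 for the proximal jejunum over the duodenum and 6 for the cecum over the distal jejunum. DESeq2 called 5 of 139 in the proximal jejunum over the duodenum (4.48% of all) and 2 of 139 in the cecum over the distal jejunum (7.13% of all). For shedding in the cecum it called 1 of 105 (0.37% of all). Scaling by total counts called 0 in the cecum over the distal jejunum. With the letter as a replicate block, 2 were called there, and the block changed no call other than those of miR-2332, miR-2424, miR-2411-3p and miR-2889 given above. Leaving out each letter gave 2 to 9 for any region (2 without J), 3 to 8 for the large over the small intestine (3 without D and without J), 0 to 5 for the proximal jejunum over the duodenum (0 without J, 5 without I) and 0 to 2 for the cecum over the distal jejunum (0 without B, D, E, F, G or J, 2 without A, H or I). Over all miRNAs tested, the share called in these fits was 13.6% to 42.3%, 18.7% to 44%, 3.99% to 14.4% and 5.07% to 19.9% in the same order. The cause of these moves was not tested. The marker rule selects on miR-196b, a marker of the large intestine, so counts without the 13 libraries are not independent of region. Other counts of calls stayed within 1.5 times. With a median of 390.5 counts over all 143 miRNAs in a library, differences in most of them were not detectable at this depth. The p-values for shedding measure the spread between 5 letters per status. Those for regions measure the spread between 60 libraries, of which those with the same letter deviated together, and only the fit with the letter as a block takes that into account.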
